A study of Mus musculus with 4 samples.

Results

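Small-intestinal group 3 innate lymphoid cells (ILC3s) are described here by 9 of the 53379 genes in the deposited expression table, chosen by gene symbol: the signal transducers Stat3, Stat4, Stat5a and Stat5b, the feedback inhibitors Socs1, Socs2, Socs3 and Cish, and the kinase gene Pim1. The cells came from mixed bone marrow chimeras and differed in Smarca4, the gene of Brg1, the ATPase of a chromatin-remodelling complex. Bone marrow from Rag1-/- Smarca4f/f donors marked by Thy1.2 gave the Brg1-sufficient ILC3s, and marrow from Rag1-/- Smarca4f/f donors that also carried a Cre transgene active in ILC3s, marked by both Thy1.1 and Thy1.2 gave the Brg1-deficient ILC3s. Marrow of both kinds, 2500000 cells of each, was mixed and given to sublethally irradiated Rag2-/- Il2rg-/- recipients, and Thy1.2high CD45low cells, without Thy1.1 for the controls and with it for the Brg1-deficient cells, were sorted from the small-intestinal lamina propria 6 to 7 weeks later. Each group had 2 libraries, and the expression measure was FPKM, the number of sequenced fragments scaled to transcript length and to the size of the library. Both groups carried the floxed alleles and lacked Rag1, and both developed in recipients without T, B and NK cells of their own. The Cre is not limited to ILC3s, so other cells of the donor marrow can carry the deletion too. The congenic marker and the genotype coincided, so their effects cannot be told apart. The age of the animals is not given in the sources used here.

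Cytokine receptors without a kinase of their own signal through Janus kinases, which phosphorylate STAT proteins. Phosphorylated STATs pair, enter the nucleus and bind DNA at gapped palindromes. Socs1, Socs2, Socs3 and Cish are among the genes that STATs switch on, and their proteins dampen the same receptors, so that their transcripts are often read as a trace of recent signalling. Pim1, a serine/threonine kinase that favours survival and growth, is another classical STAT target. In ILC3s, IL-23 signals mainly through STAT3, with STAT4 also used, IL-7 and IL-2 signal through STAT5, and IL-22 production depends on STAT3.

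The STAT palindrome, TTCNNNGAA on either strand, was sought in the windows from 250 bases before to 50 bases after annotated starts in RefSeq (GRCm38.p6). Windows were found for 8 of the 9 genes, 12 windows in all, and those of Cish and Socs3 held the letters. The stretches are shown as the windows of the 9 genes that hold the letters. The capitals mark the palindromes in these 30-base stretches, which lie on the plus strand at chr9:107296654-107296683 (Cish) and on the minus strand at chr11:117969501-117969530 (Socs3):
Cish: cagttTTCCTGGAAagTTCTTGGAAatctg
Socs3: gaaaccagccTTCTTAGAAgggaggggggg
The first of the 2 palindromes of Cish begins at the RefSeq start itself (107296659), and the palindrome of Socs3 lies from 154 to 146 bases before its RefSeq start (117969366). The gene positions given below come from another annotation, GENCODE M21, and both of these starts lie inside its bounds for the 2 genes. Of all 32851 windows, 2726 (8.3%) held at least 1 such palindrome and 150 (0.457%) held 2 or more. A match of letters is a description and does not show that a factor bound there.

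Between 30046 and 36929 genes had a value above 0 FPKM in each library. Smarca4 was at 17.1 and 16.7 FPKM in the control libraries and at 9.98 and 9.03 FPKM in those of Brg1-deficient cells, which did not overlap (log2 difference -0.77, adjusted p = 0.153 from limma). ILC3 markers differed in level, with Il23r between 209 and 268 FPKM, Il7r between 433 and 583 FPKM and Ahr between 6.94 and 10.6 FPKM. Some, named after their values were seen, also differed between groups. Ccr6 was at 186 and 203 FPKM in the control libraries and at 92.9 and 106 FPKM in those of Brg1-deficient cells. In the same order, Ltb was at 473 and 491 FPKM and at 243 and 317 FPKM. Other markers of the list went the other way, such as Cxcr5 at 63.1 and 65.8 FPKM and at 85.9 and 77.7 FPKM. Read counts were not used here and the depth is unknown, so counting error has no interval here. The sorted values matched almost exactly between libraries, so the table cannot show a difference in total RNA between groups. In sorted cells measured in bulk, fewer cells of a type and less RNA per cell cannot be told apart. The 12 ILC3 markers, mostly Il22, summed to between 10539 and 12912 FPKM in the control libraries and to between 12799 and 23498 FPKM in those of Brg1-deficient cells, and without Il22 to 2211 and 2504 FPKM and to 2339 and 2391 FPKM. At an unadjusted p under 0.05, 1 ILC3 marker was higher and 2 were lower, against 6.12% higher and 6.47% lower of all genes tested. The 10 ILC2 markers summed to 438 and 246.3 FPKM in control libraries 1 and 2 and to 124 and 155 FPKM in those of Brg1-deficient cells. Gata3 was the highest of them in each library, at 183 and 110 FPKM and at 74.5 and 105 FPKM. The 8 T cell markers, mostly Cd4 and Cd3g (43.55 and 37.19 FPKM in control library 1), summed to 102 and 55.3 FPKM and to 29.98 and 33.2 FPKM. In the same order, 12 ILC1 and NK cell markers summed to 388 and 523 FPKM and to 686 and 518 FPKM. At an unadjusted p under 0.05, 2 of these were higher and 5 lower. Among them Gzma was at 50.8 and 103 FPKM and at 397 and 218 FPKM, and Ncr1 at 31.3 and 35.5 FPKM and at 5.37 and 6.02 FPKM. Genes of this list such as Ifng are, in the paper's account, also active in a subset of ILC3s. The 8 myeloid markers, mostly Lyz2, summed to 102 and 229 FPKM and to 76.4 and 212 FPKM. The 5 B cell markers, mostly Cd79b in the controls, which fell (adjusted p = 0.0386 from limma), summed to 9.90 and 10.7 FPKM and to 2.54 and 1.69 FPKM. The other 4 B cell markers were under 1 FPKM in every library. The paper describes Rag1-/- mice, the donors here, as lacking T and B cells. The 7 epithelial markers summed to 10.6 and 10.8 FPKM and to 23.6 and 22.01 FPKM. Of these, 2 were higher at an unadjusted p under 0.05, Krt8 and Krt18. Krt18 made up most of the sums in Brg1-deficient cells, at 15.7 and 12.9 FPKM against 2.02 and 3.48 FPKM in the controls. Epcam went the other way, with both Brg1-deficient libraries below both controls, and Lgals4 overlapped between the groups. Vil1, Krt20 and Fabp2 were under 1 FPKM in every library. The 6 stromal and endothelial markers, mostly Pecam1, summed to 70.7 and 98.7 FPKM and to 74.7 and 73.3 FPKM. The part of these cell types in the results was not tested. No listed marker was at 0 in all 4 libraries. The 11 immediate early and dissociation-induced genes summed to 15489 and 19123 FPKM in the control libraries and to 16163 and 19589 FPKM in those of Brg1-deficient cells.

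None of the 9 genes passed an adjusted p of 0.05 in the comparison of Brg1-deficient with Brg1-sufficient ILC3s, where 45 of 14739 genes did (0.305%). The 9 genes were all well expressed and all passed the filter of a mean of 1 FPKM in either group. Their adjusted p-values lay between 0.489 and 0.914 (limma with Benjamini-Hochberg adjustment over all genes tested), and none of them had an unadjusted p under 0.05, which 902 genes had with higher values (6.12%) and 953 with lower values (6.47%) in the Brg1-deficient cells. The differences, on the scale of log2(FPKM + 1), ranged from -0.49 for Pim1 to 0.26 for Stat4.

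**Figure D1:**
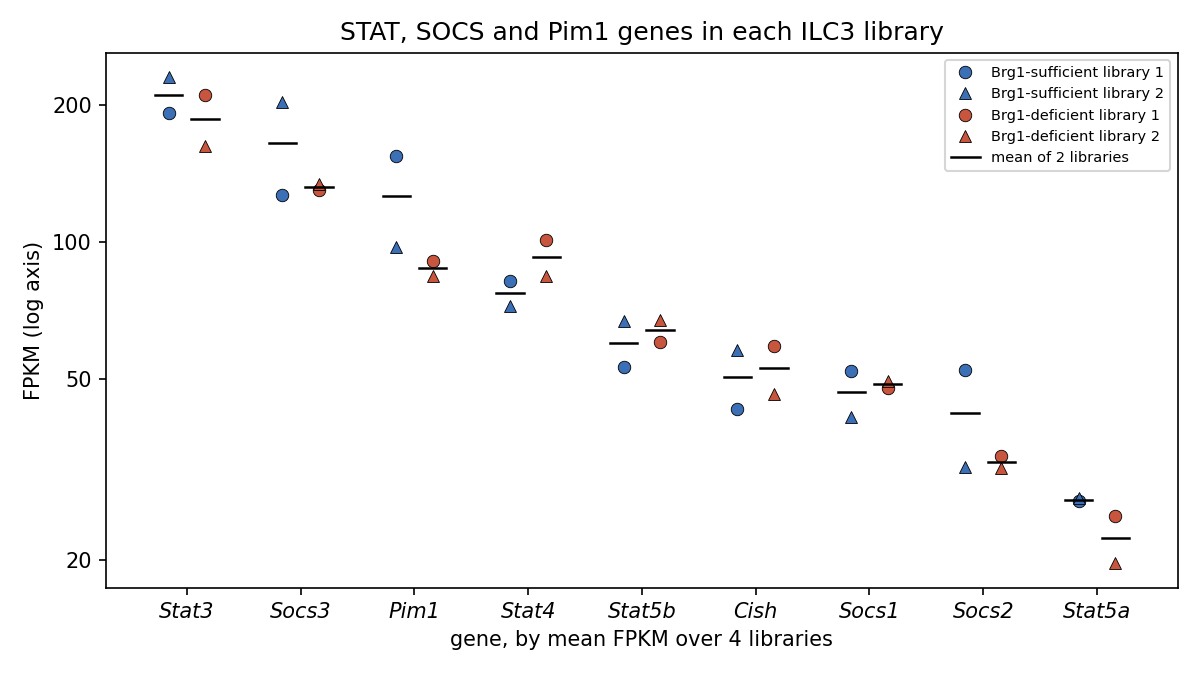
FPKM on a log axis of the 9 genes in each library, with Brg1-sufficient libraries in blue, Brg1-deficient libraries in red and a bar at the mean of the 2 libraries. The groups overlap for 6 genes, and the groups of Stat4, Stat5a and Pim1 do not.

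Stat3, the transducer of IL-23, IL-6 and IL-22 signals, was the most abundant of the 9, at 191 and 229.7 FPKM in the control libraries and at 209.98 and 162 FPKM in those of Brg1-deficient cells. The ranges of the groups overlapped, and 1 library of each group lay close to the mean of the other group. The means were 211 ± 27.1 and 186 ± 33.8 FPKM (SD, n = 2 each), and the log2 difference was -0.18 (95% interval -0.65 to 0.28, adjusted p = 0.714 from limma).

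Stat4, which transmits IL-12 and also IL-23 signals towards type 1 cytokines, was at 82.1 and 72.2 FPKM in the control libraries and at 101 and 84.1 FPKM in those of Brg1-deficient cells. Both Brg1-deficient libraries lay above both controls, although the lower one exceeded the upper control by little. The log2 difference of 0.26 (95% interval -0.15 to 0.66) did not pass the test (adjusted p = 0.588 from limma). Among all genes tested, 24.4% had both Brg1-deficient libraries above both controls.

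Stat5a and Stat5b encode near-identical transducers of IL-2 and IL-7 signals. Stat5a was at 26.9 and 27.3 FPKM in the control libraries and at 25.0 and 19.6 FPKM in those of Brg1-deficient cells. Both Brg1-deficient values were the lower ones, a pattern seen in 20.2% of all genes tested, and the log2 difference was -0.28 (95% interval -0.72 to 0.16, adjusted p = 0.590 from limma). Stat5b was at 53.1 and 66.8 FPKM in the control libraries and at 60.2 and 67.4 FPKM in those of Brg1-deficient cells, with a log2 difference of 0.10 (95% interval -0.33 to 0.53, adjusted p = 0.848 from limma). The values of Stat5b overlapped between the groups. Stat5b exceeded Stat5a in every library, and the ratio of their FPKM values was 1.98 and 2.44 in the controls and 2.41 and 3.43 in the Brg1-deficient libraries. The sum of both genes was 79.9 and 94.1 FPKM in the control libraries and 85.2 and 87.1 FPKM in those of Brg1-deficient cells, which lay between the controls.

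The genomic arrangement of the STAT genes bears on how reads could be assigned. On chromosome 11 of GRCm38, Stat5b (100780731 to 100850724, minus strand), Stat5a (100859351 to 100885169, plus strand) and Stat3 (100885098 to 100939540, minus strand) lie side by side, and the annotated exons of Stat5a and Stat3 share 72 bases on opposite strands, 1.01% of the exon bases of Stat5a. Of the 50-base windows in annotated Stat5a transcripts, 8.21% also occurred in Stat5b, and of the 90-base windows 3.98% did, so a part of the reads could belong to either gene. Stat4 (chromosome 1, 51987148 to 52107189, plus strand) shares 1033 exon bases, 26.7% of its own, with the overlapping transcript gene Gm28177, which was between 0.53 and 1.58 FPKM. RSEM was run by the authors at its defaults, which do not use strand, so reads of a gene and of an antisense partner in shared exon bases cannot be told apart.

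Socs1, an inhibitor that binds Janus kinases directly and restrains interferon and IL-2 family signals, was at 52.0 and 41.2 FPKM in the control libraries and at 47.8 and 49.3 FPKM in those of Brg1-deficient cells. Both Brg1-deficient values lay between the controls, and the log2 difference was 0.07 (95% interval -0.35 to 0.49, adjusted p = 0.893 from limma). The gene lies on chromosome 16 (10782240 to 10785536, minus strand).

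Cish, an inhibitor induced by STAT5 that acts on IL-2 family receptors, was at 42.8 and 57.7 FPKM in the control libraries and at 59.1 and 46.3 FPKM in those of Brg1-deficient cells. The spread within each group was larger than the difference between the groups, 50.3 ± 10.5 against 52.7 ± 9.07 FPKM (SD, n = 2 each). Its log2 difference was 0.07 (95% interval -0.46 to 0.61, adjusted p = 0.914 from limma). The Cish gene (chromosome 9, 107296026 to 107302784, plus strand), with its 2 palindromes, shares 479 exon bases with the antisense gene Gm17041, which was between 15.8 and 23.2 FPKM, and 261 with the pseudogene Gm17040, which was at most 1.49 FPKM.

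Socs3, the inhibitor of receptors that signal through gp130 and of the IL-23 receptor, was the most abundant inhibitor. Its values were 127 and 202 FPKM in the control libraries and 129.99 and 134 FPKM in those of Brg1-deficient cells. Control library 2 stood apart from the other 3 libraries, which were close together. The log2 difference was -0.28 (95% interval -0.88 to 0.32, adjusted p = 0.666 from limma), and without control library 2 it was 0.06. That library also had higher sums than control library 1 in the immediate early and myeloid lists, as Brg1-deficient library 2 had against library 1, and the part of these in Socs3 was not tested. Socs3 lies on chromosome 11 (117966079 to 117970047, minus strand).

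Socs2, a STAT5-induced inhibitor best known from growth hormone signalling, was at 52.2 and 31.95 FPKM in the control libraries and at 33.9 and 31.8 FPKM in those of Brg1-deficient cells. Control library 1 was the highest, and the other 3 libraries lay within a narrow range. The log2 difference of -0.31 (95% interval -0.94 to 0.33) did not pass the test (adjusted p = 0.647 from limma), and it was 0.04 without control library 1, the library with the highest sums of ILC2 and T cell markers. The part of those markers in Socs2 was not tested. Socs2 lies on chromosome 10 (95385362 to 95417180, minus strand).

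Pim1 was at 155 and 97.4 FPKM in the control libraries and at 90.5 and 84.3 FPKM in those of Brg1-deficient cells. Both Brg1-deficient libraries were below both controls, a pattern seen in 20.2% of all genes tested. Their mean, 87.4 ± 4.40 FPKM, was 69.4% of the control mean, 126 ± 40.4 FPKM (SD, n = 2 each). Its log2 difference, -0.49 (95% interval -1.09 to 0.12), lay farthest from 0 among the 9 genes and did not pass the test (adjusted p = 0.489 from limma). Control library 1 set much of it: without that library the log2 difference was -0.16, and without control library 2 it was -0.82. The highest ILC2 and T cell marker sums were in the same control library 1, and their part in Pim1 was not tested. The gene lies on chromosome 17 (29490753 to 29496112, plus strand) and shares 488 exon bases, 14.5% of its own, with the antisense gene Gm26885, which was between 2.85 and 5.05 FPKM.

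**Figure D2:**
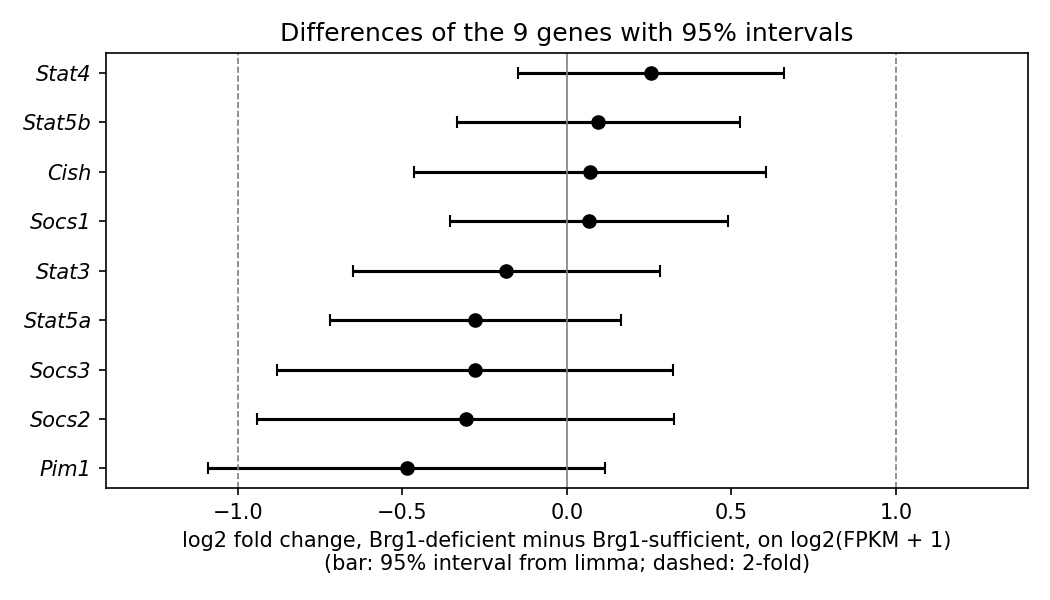
Log2 difference, Brg1-deficient minus Brg1-sufficient on log2(FPKM + 1), of the 9 genes, with bars for the 95% interval from limma and dashed lines at a 2-fold difference in each direction. The interval of each gene includes 0, and that of Pim1, from -1.09 to 0.12, is the one that passes the 2-fold line.

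The intervals show what size of difference the 4 libraries leave room for. For 8 of the 9 genes the 95% interval lay within a 2-fold difference in either direction, as it did for 57.2% of all genes tested and for 76.0% of the 9095 genes with a mean above 5 FPKM in either group. Pim1 was the exception, with an interval from 0.470-fold to 1.08-fold. The log2 difference was above 0 for 4 genes and below 0 for 5, against 7879 and 6860 of the 14739 genes tested. The median log2 difference of the 9 was -0.18, against 0.03 over all genes tested, and the median size of the difference regardless of direction was 0.26, against 0.25 over all genes tested. Groups that did not overlap were found for 3 of the 9 genes (33.3%), 1 higher and 2 lower, against 44.6% of all genes tested. In 6 of the 9 genes (Socs1, Socs2, Socs3, Cish, Stat3 and Stat5b) the sign of the difference turned when 1 library was left out. The share of all genes tested that turned in this way is not given here. With 2 libraries against 2, the smallest p of an exact two-sided permutation test is 0.333, and limma reaches smaller values by pooling the spread of many genes.

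Since FPKM is per length of transcript, levels can be ranked between the genes. In the controls the order by mean was Stat3, Socs3, Pim1, Stat4, Stat5b, Cish, Socs1, Socs2 and Stat5a. Neighbours whose libraries did not overlap were Pim1 above Stat4, Stat4 above Stat5b, and Socs2 above Stat5a, and all other neighbours overlapped. In the Brg1-deficient cells Stat4 stood above Pim1, with overlapping libraries, and the rest of the order was the same. There the other overlapping pair of neighbours was Cish and Socs1. Among the 14739 genes tested, Stat3 ranked 458 by mean FPKM over all libraries, Socs3 660, Pim1 938, Stat4 1218, Stat5b 1680, Cish 1982, Socs1 2153, Socs2 2706 and Stat5a 3785.

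Ratios of FPKM between genes of the same library were also formed. The ratio of Stat3 to Stat4 was 2.33 and 3.18 in the controls and 2.08 and 1.93 in the Brg1-deficient libraries, so that the groups did not overlap. Socs3 to Stat3 gave 0.663 and 0.881 in the controls and 0.619 and 0.826 in the Brg1-deficient libraries. Socs3 to Socs1 gave 2.44 and 4.91 in the controls and 2.72 in both Brg1-deficient libraries (2.720 and 2.715). Cish to Stat5b gave 0.807 and 0.865 in the controls and 0.982 and 0.686 in the Brg1-deficient libraries. In the last 3 ratios the groups overlapped. These ratios were given no test.

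The differences of the other Pim genes, Pim2 and Pim3, had opposite signs. Pim2, a related survival kinase, was at 87.2 and 123 FPKM in the control libraries and at 215 and 221 FPKM in those of Brg1-deficient cells. The groups were well apart, and the Brg1-deficient mean was 207% of the control mean. The log2 difference of 1.07 (95% interval 0.57 to 1.56) did not pass the test (adjusted p = 0.115 from limma). Pim3, named after its values were seen, was at 124 and 137 FPKM in the control libraries and at 108 and 75.0 FPKM in those of Brg1-deficient cells (log2 difference -0.53, adjusted p = 0.392 from limma). The ratio of Pim2 to Pim1 was 0.564 and 1.26 in the controls and 2.37 and 2.63 in the Brg1-deficient libraries, and this ratio had no test. No 50-base window of Pim1 occurred in Pim2 or Pim3.

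**Figure D3:**
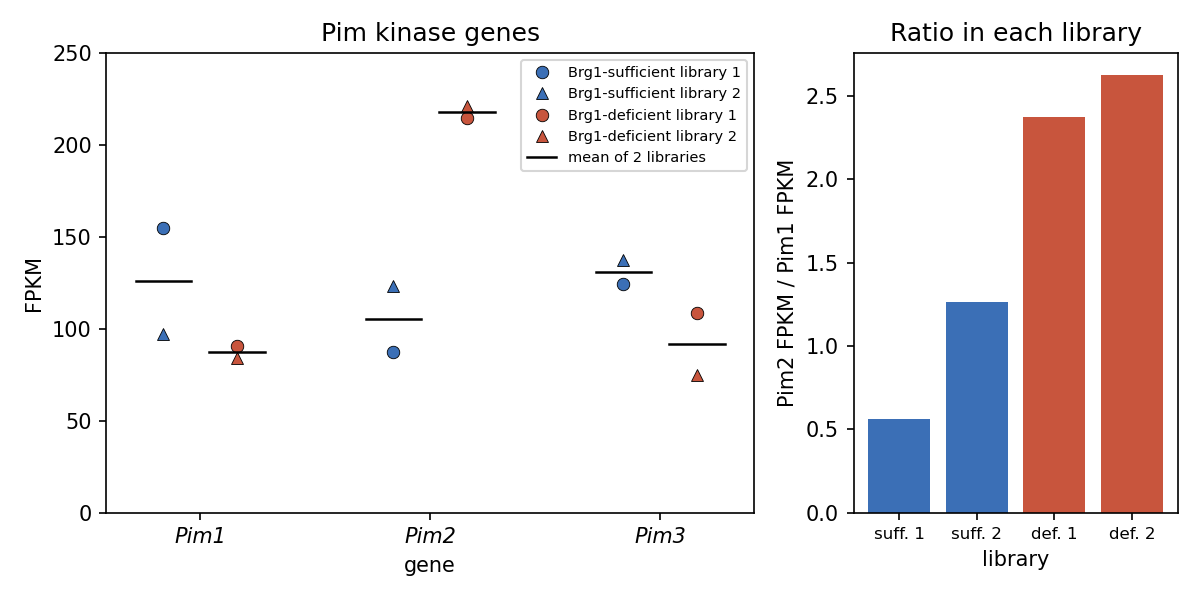
Left, FPKM of Pim1, Pim2 and Pim3 in each library, with a bar at the mean of the 2 libraries of a group, and right, the ratio of Pim2 to Pim1 FPKM in each library (blue, Brg1-sufficient, red, Brg1-deficient). The ratio is 0.564 and 1.26 in the controls and 2.37 and 2.63 in the Brg1-deficient libraries.

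The rest of the pathway was examined by role, from lists of related genes. Beside the counts by list below, 6.12% of all genes tested were higher and 6.47% lower at an unadjusted p under 0.05. Among the cytokine ligands, 12 of 21 were expressed enough to be tested, and 1 rose and 1 fell at an adjusted p under 0.05. Il2, whose product signals through STAT5, rose from 4.58 and 7.98 FPKM to 59.3 and 59.6 FPKM (log2 difference 3.09, adjusted p = 0.0383 from limma). Ifng, a type 1 cytokine and itself a target of STAT4, fell from 22.8 and 37.3 FPKM to 3.42 and 3.22 FPKM (log2 difference -2.80, adjusted p = 0.0386 from limma). Without any 1 of the 4 libraries the log2 difference stayed between 2.75 and 3.44 for Il2 and between -3.15 and -2.46 for Ifng. No gene of the whole table passed the adjusted threshold of limma without 1 library, with no filter on low FPKM or without a trend, so these calls could not be kept there, and between 509 and 1489 genes in each direction had an unadjusted p under 0.05.

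Other ligands had large differences that did not pass the test. Csf2, which encodes GM-CSF, a cytokine that signals through STAT5, was at 245 and 199.7 FPKM in the control libraries and at 564 and 638 FPKM in those of Brg1-deficient cells (log2 difference 1.44, adjusted p = 0.0572 from limma). The paper reports more Csf2 by RT-PCR in ILC3s sorted from Brg1-deficient mice, and more GM-CSF protein, in mixed chimeras too. Lif, an IL-6 family cytokine that signals through STAT3, was at 22.2 and 28.2 FPKM in the control libraries and at 71.9 and 56.3 FPKM in those of Brg1-deficient cells (log2 difference 1.31, adjusted p = 0.0917 from limma). With the genes limited to a mean above 5 FPKM, the adjusted p was 0.0294 for Csf2 and 0.0490 for Lif. In these ligands the Brg1-deficient libraries lay above both controls, a pattern seen in 24.4% of all genes tested.

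Il4, which signals through STAT6, was at 13.4 and 5.18 FPKM in the control libraries and at 0.26 and 0.24 FPKM in those of Brg1-deficient cells (log2 difference -2.92, adjusted p = 0.0917 from limma). Il5, named after its values were seen, was at 24.8 and 1.64 FPKM and at 0.32 and 0.06 FPKM (log2 difference -2.80, adjusted p = 0.367). These are cytokines of ILC2s, and of the 10 ILC2 markers, which include Il5, 9 were tested, 6 with lower and 1 with higher values at an unadjusted p under 0.05. The part of ILC2s in these values was not tested. Il22, the signature cytokine of ILC3s, was the most abundant ligand, at 8328 and 10408 FPKM in the control libraries and at 21159 and 10408 FPKM in those of Brg1-deficient cells (adjusted p = 0.520 from limma), and these values take the top ranks of the near-identical sorted lists.

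None of the 20 receptor chains tested, of 27 listed, passed the adjusted threshold. Il2rg, the chain shared by receptors of the IL-2 family, was the most abundant, at 1215 and 1031 FPKM in the control libraries and at 1073 and 1031 FPKM in those of Brg1-deficient cells (log2 difference -0.09, adjusted p = 0.834 from limma). Ifngr1, the ligand-binding chain of the interferon-γ receptor, was at 356 and 276 FPKM in the control libraries and at 177 and 130.3 FPKM in those of Brg1-deficient cells, 48.7% of the control mean (log2 difference -1.04, adjusted p = 0.148 from limma). At an unadjusted p under 0.05, 1 chain was higher and 3 were lower, among them Ifngr1. The others, named after their values were seen, take part in IL-2, IL-15 and TSLP signals. Il2rb was at 399 and 524 FPKM in the control libraries and at 292 and 231 FPKM in those of Brg1-deficient cells (adjusted p = 0.198 from limma), and Il15ra at 16.6 and 13.3 FPKM and at 24.8 and 28.2 FPKM (adjusted p = 0.181). Crlf2 was at 8.78 and 10.8 FPKM and at 6.78 and 6.15 FPKM (adjusted p = 0.367 from limma).

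The Janus kinases, which link receptors to STATs, had 4 of 4 genes tested and 0 with an unadjusted p under 0.05. Jak1, the most abundant, was at 209 and 215 FPKM in the control libraries and at 196 and 185 FPKM in those of Brg1-deficient cells (log2 difference -0.15, adjusted p = 0.653 from limma). Jak2, named after its values were seen, was at 17.9 FPKM in control library 1 and between 6.72 and 7.80 FPKM in the other 3 libraries, so that library stood apart as it did for Pim1 and Socs2.

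Of the other SOCS genes, 4 of 4 were tested and none had an unadjusted p under 0.05. Socs4 was the most abundant of these, at 6.74 and 7.70 FPKM in the control libraries and at 9.19 and 10.5 FPKM in those of Brg1-deficient cells (log2 difference 0.40, adjusted p = 0.469 from limma). The other SOCS genes thus stood at 10.5 FPKM or less in every library, below every value of Socs1, Socs2, Socs3 and Cish. Of the 3 other STAT genes listed, none had an unadjusted p under 0.05.

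The 11 PIAS proteins, phosphatases and adaptors that restrain the pathway were all tested, and none passed the adjusted threshold. Ptprc, which encodes CD45, was the most abundant, at 189 and 168 FPKM in the control libraries and at 168 and 159 FPKM in those of Brg1-deficient cells (log2 difference -0.12, adjusted p = 0.739 from limma). Ptpn6 and Ptpn2 encode phosphatases that act on Janus kinases and STATs, and they were the 2 genes with an unadjusted p under 0.05, both with higher values in the Brg1-deficient cells. Ptpn6 was at 54.0 and 79.8 FPKM in the control libraries and at 99.9 and 106 FPKM in those of Brg1-deficient cells (log2 difference 0.64, adjusted p = 0.326 from limma). Ptpn2 was at 69.2 and 58.5 FPKM in the control libraries and at 96.7 and 80.2 FPKM in those of Brg1-deficient cells (log2 difference 0.46, adjusted p = 0.362 from limma).

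Textbook targets of STAT5, STAT3 and STAT4 other than the 9 genes were counted by list. Of 9 STAT5 targets, all tested, none passed the adjusted threshold, and at an unadjusted p under 0.05, 2 were higher and 3 lower. Ccnd2, a cyclin of the G1 phase, was at 168 and 161 FPKM in the control libraries and at 242 and 261 FPKM in those of Brg1-deficient cells (log2 difference 0.61, adjusted p = 0.153 from limma). Myc, a growth regulator, was at 10.5 and 8.97 FPKM in the control libraries and at 5.04 and 4.83 FPKM in those of Brg1-deficient cells (log2 difference -0.85, adjusted p = 0.171 from limma). Osm, an IL-6 family cytokine, was at 10.2 and 8.78 FPKM in the control libraries and at 3.18 and 4.80 FPKM in those of Brg1-deficient cells (log2 difference -1.09, adjusted p = 0.167 from limma). Each of these had groups that did not overlap, as 44.6% of all genes tested had. The others, Bcl2l1 (log2 difference 0.80) and Bcl6 (log2 difference -0.72), were named after their values were seen.

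Of 10 STAT3 targets, all tested, 1 rose, and at an unadjusted p under 0.05, 3 were higher and 0 lower. Il17f, a cytokine of type 3 cells, rose from 555 and 421 FPKM to 2279 and 1852 FPKM (log2 difference 2.08, adjusted p = 0.0386 from limma). Its log2 difference stayed between 1.89 and 2.28 without any 1 of the 4 libraries. The median log2 difference of the STAT3 targets was 0.00, and for those of STAT5 it was -0.31, against 0.03 over all genes tested.

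Of 6 STAT4 targets, 5 were tested, and Ifng fell as given above. At an unadjusted p under 0.05, 0 were higher and 3 lower, namely Ifng, Furin and Tbx21. The other tested targets, named after their values were seen, were Il18r1 (log2 difference 0.30) and Il18rap (0.13). Both had higher values in the Brg1-deficient libraries than in both controls, as 24.4% of all genes tested had. Furin, a protease gene induced by STAT4, was at 120.0 and 154 FPKM in the control libraries and at 98.4 and 83.6 FPKM in those of Brg1-deficient cells (log2 difference -0.58, adjusted p = 0.294 from limma). Tbx21, the gene of T-bet and named after its values were seen, was at 4.21 and 6.04 FPKM in the control libraries and at 1.28 and 0.90 FPKM in those of Brg1-deficient cells (log2 difference -1.54, adjusted p = 0.119 from limma). The median log2 difference of the STAT4 targets was -0.58, while Stat4 itself was at 0.26. Ifng and Tbx21 also stand on the list of 12 ILC1 and NK cell markers, of which 11 were tested and 2 fell, with 2 higher and 5 lower at an unadjusted p under 0.05. The paper also describes T-bet and IFN-γ in NKp46+ ILC3s, a subset of the ILC3s themselves. It reports a smaller share of this subset without Brg1 in the small intestine, in mixed chimeras too. The part of ILC1s, NK cells and this ILC3 subset in these values was not tested.

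**Figure D4:**
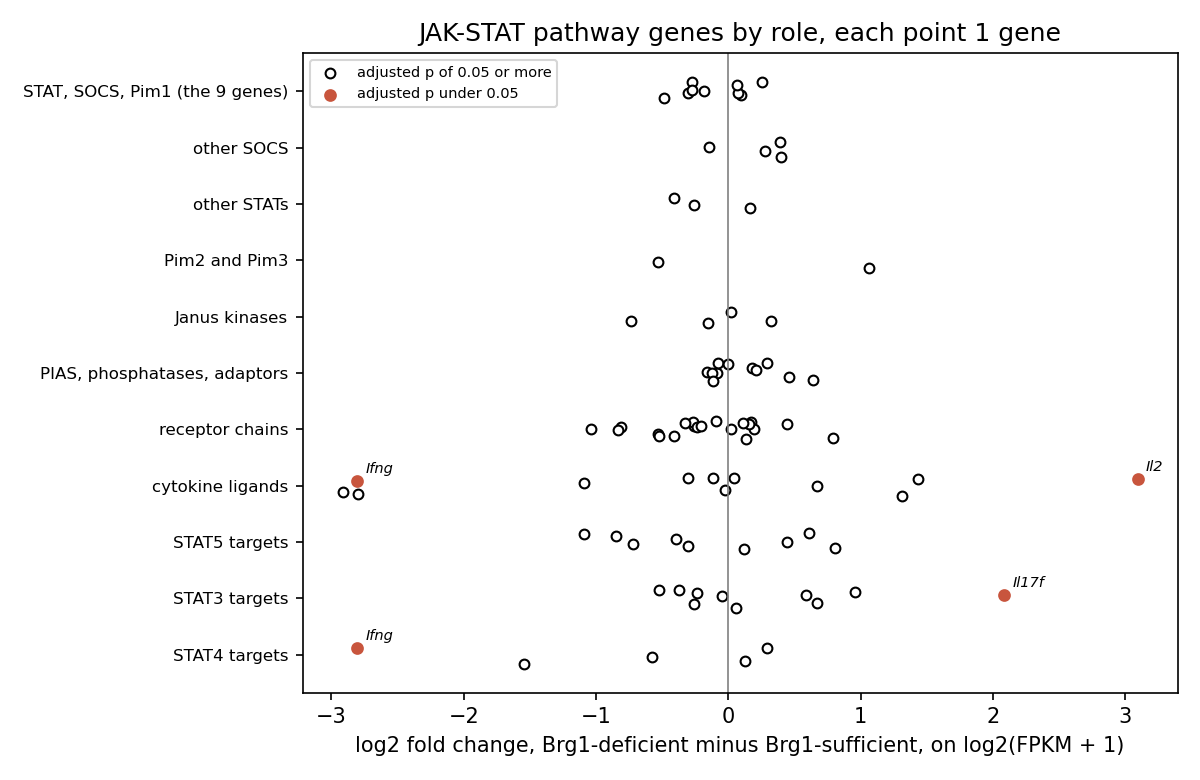
Log2 difference, Brg1-deficient minus Brg1-sufficient on log2(FPKM + 1), of each tested gene by role in the pathway, 1 point per gene and list (Ifng, Il2ra, Il21r, Il22, Il23r and Osm stand on 2 lists), with filled points for an adjusted p under 0.05. The 9 genes lie between -0.49 and 0.26 and the ligands between -2.92 and 3.09.

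The genes most like Stat4 and Pim1, which had the highest and the lowest difference among the 9, were found by the distance between their centred log2(FPKM + 1) values over the 4 libraries, among 9094 genes with a mean above 5 FPKM in either group. For Stat4 these were AW554918 (distance 0.0257), Atg12 (0.0305) and Srgn (0.0390). For Pim1 they were Ascc3 (distance 0.0507), Uhrf2 (0.0534) and 2310039H08Rik (0.0642), each of which was highest in control library 1. Ascc3, for instance, was at 66.6 and 43.3 FPKM in the control libraries and at 40.6 and 37.4 FPKM in those of Brg1-deficient cells. Over 4 libraries such likeness is a description only.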

How the data were processed

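RNA was sequenced from ILC3s of mixed bone marrow chimeras in 2 Brg1-sufficient and 2 Brg1-deficient libraries. Amplified cDNA was sequenced from single ends, and the authors mapped reads to GRCm38.p5 with STAR 2.5, used RSEM 1.2 for quantification and deposited 1 FPKM value for each gene in each library, the unit used here. Sorted FPKM values agreed across libraries (99.3% of 13693 ranks differed by less than 1%), and no step that would do this is named in the sources used here.

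Genes with a mean above 1 FPKM in either group (14739) were tested on log2(FPKM + 1) with limma 3.58.1 under R 4.3.3 (eBayes, trend on), which understates changes of low genes, with Benjamini-Hochberg adjustment. The script was tested on simulated data. The study calls the libraries biological duplicates, and the labels do not say whether they came from separate recipients. The p-values thus measure the spread between these libraries, with that of each gene pooled by limma with other genes. The named genes were the 9 genes, Smarca4, the most abundant gene of each pathway list, those with an adjusted p under 0.05 with or without a replicate block, otherwise up to 3 with the smallest unadjusted p under 0.05 and a mean above 5 FPKM, and the 3 genes nearest to the extreme members, except for some that are not reported here. The genes and lists were chosen with earlier results of these data known. Positions came from GENCODE M21 on GRCm38 and promoter sequences from RefSeq. Alternatives were a pseudocount of 0.1, other filters, limma without the trend, quantile normalization, median centring, a replicate block and leaving out each library. No protein sequences were used here, and the ATAC-seq data were not analysed here.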

Additional observations from a re-analysis of the deposited data

How the results depend on the processing

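Under 7 settings other than leaving out a library, none of the 9 genes was called, with a smallest adjusted p of 0.289 from limma (Pim1 with the replicate block). All 9 kept their direction, and log2 differences moved by at most 0.0106. The filters, the trend and the block cannot change a log2 difference and bear on p-values alone. Quantile normalization and median centring had little to change in sorted values that already matched. The kept directions are thus no sign of stability. Leaving out 1 library at a time gave ranges of -0.82 to -0.16 for Pim1, 0.12 to 0.39 for Stat4 and -0.44 to -0.11 for Stat5a, which kept their signs, and of -0.10 to 0.23 for Socs1, -0.65 to 0.037 for Socs2, -0.61 to 0.056 for Socs3, -0.14 to 0.28 for Cish, -0.37 to 0.0020 for Stat3 and -0.067 to 0.26 for Stat5b, which did not. With 1 library left out, 4 to 8 of the 9 genes had groups that did not overlap, where fewer libraries make this likelier. The share of all genes tested in these settings is not given here. The log2 difference of Il2rg ranged from -0.21 to 0.029 and turned sign without control library 1.

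Over all genes, limma called 33 lower and 12 higher. Limiting the genes to a mean above 5 FPKM gave 73 and 41. No filter gave 0 and 0 (1400 and 1308 by unadjusted p under 0.05), and limma without a trend 0 and 0 (965 and 903). Leaving out a library gave from 0 to 0 in both directions, with 509 to 1331 lower and 521 to 1489 higher at an unadjusted p under 0.05. The causes were not tested.

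Labels number the libraries 1 and 2 in both groups without saying that the numbers pair them, and the deviations of same-numbered libraries had a correlation of -0.00039 across genes. With the replicate block, 248 genes were lower and 150 higher, and Pim2 (adjusted p = 0.0177), Ifngr1 (0.0137), Il4 (0.00576), Lif (0.0141) and Csf2 (0.00473) passed. The unknown depth limits low genes such as Il4 most.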
